A study of Mus musculus with 15 samples.

Results

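The BTG and TOB genes encode a small family of antiproliferative proteins, and 5 of them, Btg1, Btg2, Btg3, Tob1 and Tob2, were followed by symbol through the count and FPKM tables of both batches. They are 5 of 30999 genes with at least 1 count in batch 1 and 5 of the 13063 named genes of batch 2. The family was picked because Btg2 and Tob1 had shown clear rises in these data, so their levels with and without purine are described here with no test. Btg1, Btg3 and Tob2 came in through the family name. Btg4, another mouse member, had 2 counts over the 6 libraries of batch 1 and no line in the batch 2 table.

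The cells were mouse hindlimb muscle satellite cells, the stem cells of skeletal muscle, cultured in F10 medium with 10% horse serum. In batch 1, 3 libraries came from cells given 0.05 mM adenosine and 3 from cells given DMSO, the solvent control, each for 24 hours. In batch 2, which the labels assign to the strain C57BL/6J, 3 libraries each came from cells given 0.1 mM adenosine, 0.25 mM adenosine monophosphate (AMP, adenosine with a 5' phosphate) and DMSO. The strain of batch 1 is not given in the labels. The adenosine dose changed together with the batch, so a difference between batches cannot be told apart from a difference in dose. The labels do not state whether libraries of 1 group are from separate cultures or animals, so each p-value reflects how far these libraries varied, and that variation may be technical.

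Proteins of this family share an N-terminal BTG/TOB domain that binds the CAF1 deadenylases Cnot7 and Cnot8, catalytic subunits of the CCR4-NOT complex that shorten poly(A) tails and so start mRNA decay. The TOB proteins also carry motifs that bind the poly(A)-binding protein Pabpc1, whereas Btg1 and Btg2 bind the arginine methyltransferase Prmt1. Forced expression of these proteins slows entry into S phase in cultured cells, and in mouse T cells Btg1 and Btg2 maintain quiescence, the resting state that satellite cells hold in uninjured muscle.

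Library totals ranged over 14683346 to 20799588 counts (batch 1) and 11107450 to 14201933 counts (batch 2). All 8 satellite cell and myoblast markers (Pax7, Myf5, Myod1, Des, Cdh15, Itga7, Vcam1 and Sdc4) had counts in every group. Their summed level was 4285 to 5175 CPM (counts scaled to library size) with 0.05 mM adenosine and 6706 to 6926 CPM with DMSO in batch 1. In batch 2 it was 3136 to 3816 CPM with adenosine, 3495 to 4235 CPM with AMP and 5413 to 5935 CPM with DMSO. The markers did not all move together. In batch 2 Myod1 had 719 ± 59.4 CPM with adenosine and 882 ± 87.1 CPM with AMP, against 1530 ± 172 CPM with DMSO. Pax7 had 65.9 ± 3.77 CPM with adenosine and 77.1 ± 7.97 CPM with AMP, against 41.7 ± 4.04 CPM with DMSO. The summed level of 8 cycling-cell markers was 105 to 119 CPM with 0.05 mM adenosine against 638 to 1541 CPM with DMSO in batch 1. It was 242 to 437 CPM with 0.1 mM adenosine and 257 to 501 CPM with AMP, against 2140 to 2730 CPM with DMSO in batch 2. Leukocyte markers summed to 19.8 to 29.8 CPM with 0.05 mM adenosine and 7.15 to 8.04 CPM with DMSO, and in batch 2 to 14.2 to 17.5 CPM with adenosine, 14.2 to 19.3 CPM with AMP and 3.14 to 4.54 CPM with DMSO. Of that list, Cd3e was at 0 in both groups of batch 1, and Adgre1 and Csf1r were at 0 in its DMSO libraries. Batch 2 listed 3 of the 10 leukocyte markers. In batch 1 Cd68 had 12.9 ± 1.84 CPM with adenosine against 1.86 ± 0.693 CPM with DMSO, and Ptprc had 0.609 ± 0.546 CPM with adenosine. Endothelial markers summed to 20.4 to 27.8 CPM with 0.05 mM adenosine and 6.01 to 8.91 CPM with DMSO, and smooth muscle and pericyte markers to 26.9 to 63.8 CPM with 0.05 mM adenosine and 215 to 565 CPM with DMSO. Fibro-adipogenic progenitor markers summed to 316 to 395 CPM with 0.05 mM adenosine and 344 to 448 CPM with DMSO. In batch 2 they summed to 288 to 309 CPM with adenosine, 394 to 434 CPM with AMP and 329 to 402 CPM with DMSO. Differentiated myocyte markers summed to 2.19 to 17.3 CPM with 0.05 mM adenosine and 23.2 to 59.7 CPM with DMSO, and overlapped between the groups of batch 2. Several of these marker levels moved with the treatments, and their part in the results that follow was not tested.

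The promoters of Btg2, Btg1 and Tob1 are shown because they hold TGACG matches, which those of Btg3 and Tob2 lack. RefSeq (GRCm38.p6) gave a window of 300 bases, 250 before and 50 after the start, for all 5 genes, with a second start for Btg3. Capitals in the sequences mark TGACG (the core of cyclic AMP response elements), CCAAT (the NF-Y box) and TATAAA (the TATA box) on either strand, so a match to the other strand reads CGTCA or ATTGG.
Btg2, chr1:134079106-134079405, minus strand: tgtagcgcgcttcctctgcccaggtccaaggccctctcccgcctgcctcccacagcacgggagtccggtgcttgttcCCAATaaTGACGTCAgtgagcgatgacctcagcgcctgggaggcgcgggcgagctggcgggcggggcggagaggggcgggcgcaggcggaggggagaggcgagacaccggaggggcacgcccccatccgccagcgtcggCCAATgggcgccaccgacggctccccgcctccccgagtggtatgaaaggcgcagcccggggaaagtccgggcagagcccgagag
Btg1, chr10:96616751-96617050, plus strand: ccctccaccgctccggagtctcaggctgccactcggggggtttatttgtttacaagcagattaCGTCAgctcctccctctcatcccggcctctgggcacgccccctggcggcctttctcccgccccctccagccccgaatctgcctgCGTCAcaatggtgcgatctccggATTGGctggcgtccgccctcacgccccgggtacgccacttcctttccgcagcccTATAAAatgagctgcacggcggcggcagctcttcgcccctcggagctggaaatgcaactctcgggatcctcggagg
Tob1, chr11:94211204-94211503, plus strand: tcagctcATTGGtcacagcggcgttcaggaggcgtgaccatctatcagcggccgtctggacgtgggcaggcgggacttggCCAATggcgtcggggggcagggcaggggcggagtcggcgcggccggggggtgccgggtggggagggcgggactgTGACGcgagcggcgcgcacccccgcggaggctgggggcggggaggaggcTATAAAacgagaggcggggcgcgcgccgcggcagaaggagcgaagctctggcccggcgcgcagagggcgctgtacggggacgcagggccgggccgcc
The Btg2 window held the full palindrome TGACGTCA at positions -166 to -159 from the start, an element present in 1.79% of the 32851 promoters of the table. Its left and right parts are each a TGACG match, on opposite strands and overlapping. Btg1 held 2 separate TGACG matches on the minus strand, at -187 to -183 and -103 to -99, and Tob1 held 1, at -96 to -92. TGACG on either strand was found in 20.8% of all promoters, and the windows of Btg3 and Tob2 had none. TATAAA stood at -26 to -21 in Btg1 and at -47 to -42 in Tob1, and 13.6% of promoters held it. CCAAT was found in every window but that of Tob2, against 37.4% of promoters. GGGCGG, the GC box, was found in every window but the first of Btg3, against 35.7%. GTAAACA, a forkhead core held by 3.65% of promoters, was found in Btg1 on the minus strand, from -204 to -198. TTTCCCGC (1.07% of promoters), TTTGGCGC (0.514%), the p53 response element (0.0731%) and the SRF CArG box (1.63%) were in none of the windows. A match describes letters in a window and not a bound site.

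Btg2 (chromosome 1, 134075170 to 134079120, minus strand, GRCm38) encodes the short family member first known as an immediate-early gene induced by growth factors and by p53. In batch 1 it had 73.1, 63.5 and 76.8 FPKM (a level per kilobase of exon, as deposited) with 0.05 mM adenosine, against 23.3, 22.3 and 26.0 FPKM with DMSO. The deposited FPKM was not scaled by the library totals used for CPM, so FPKM and CPM are on different scalings. The lowest adenosine library lay above the highest DMSO library by more than the range of either group. In a bulk sample, a higher share of cells that express a gene and more RNA per cell cannot be told apart. Batch 2 gave 78.3, 74.4 and 84.1 FPKM with 0.1 mM adenosine and 66.0, 60.0 and 71.4 FPKM with 0.25 mM AMP, against 12.7, 11.8 and 12.6 FPKM with DMSO. Both purine groups lay clear of DMSO, and the AMP libraries lay below the adenosine libraries without overlap. The fitted log2 fold changes over DMSO were 1.58 (SE 0.13) at 0.05 mM adenosine, 2.66 (SE 0.09) at 0.1 mM adenosine and 2.41 (SE 0.09) with AMP.

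Tob1 (chromosome 11, 94211454 to 94215495, plus strand) encodes a longer member that binds both CCR4-NOT and Pabpc1, and is known for holding human T cells unresponsive. It had 83.1, 77.8 and 84.5 FPKM with 0.05 mM adenosine, against 17.2, 19.0 and 15.6 FPKM with DMSO in batch 1. In batch 2 it had 112, 109 and 133 FPKM with 0.1 mM adenosine and 78.2, 70.1 and 83.6 FPKM with AMP, against 15.1, 12.2 and 16.6 FPKM with DMSO. All 9 purine libraries lay far above all 6 DMSO libraries, and those with 0.1 mM adenosine were the highest. Its log2 fold changes over DMSO were 2.25 (SE 0.13) with 0.05 mM adenosine, 3.01 (SE 0.11) with 0.1 mM adenosine and 2.40 (SE 0.11) with AMP, and these were the highest of the family in batch 1 and with 0.1 mM adenosine. With AMP, Btg2 at 2.41 and Tob1 at 2.40 were within their standard errors of each other. In the authors' deposited table for batch 1, which is coded as DMSO over adenosine, the log2 values were -2.24 for Tob1, -1.57 for Btg2, -1.12 for Tob2, -0.74 for Btg1 and -0.68 for Btg3.

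**Figure D1:**
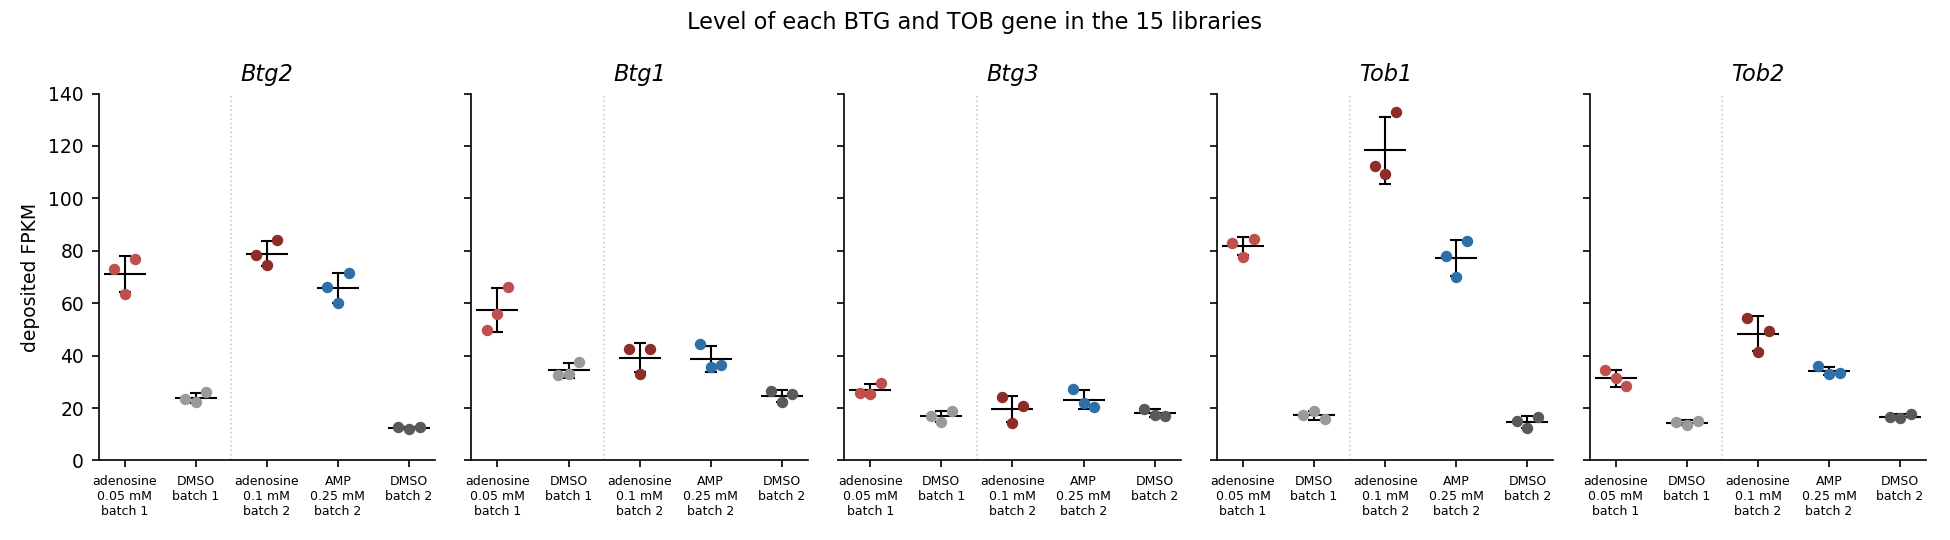
Deposited FPKM (y axis) of each gene in the 15 libraries, with groups along the x axis; points are libraries, and lines with bars are the mean ± SD of 3 libraries. Tob1 lay between 70.1 and 133 FPKM in the 9 purine libraries and between 12.2 and 19.0 FPKM in the 6 DMSO libraries, whereas Btg3 overlapped between 0.1 mM adenosine and DMSO.

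Tob2 (chromosome 15, 81848270 to 81858326, minus strand), the closest relative of Tob1, rose in all 3 purine groups. It had 34.6, 31.3 and 28.3 FPKM with 0.05 mM adenosine, against 14.6, 13.5 and 15.2 FPKM with DMSO in batch 1. With 0.1 mM adenosine it had 54.4, 41.3 and 49.4 FPKM and with AMP 36.0, 33.1 and 33.2 FPKM, against 16.5, 16.0 and 17.7 FPKM with DMSO in batch 2. No purine library overlapped with the DMSO libraries of its batch, and the highest AMP library lay below the lowest of the 0.1 mM adenosine libraries. The log2 fold change was 1.13 (SE 0.12, adjusted p = 2.51e-05 by edgeR's quasi-likelihood test) at 0.05 mM adenosine, 1.52 (SE 0.09, adjusted p = 1.88e-09) at 0.1 mM adenosine and 1.03 (SE 0.09, adjusted p = 1.69e-07) with AMP.

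Btg1 (chromosome 10, 96617001 to 96622813, plus strand), the close relative of Btg2, rose by a smaller and similar amount in each treatment. It had 49.9, 56.0 and 66.3 FPKM with 0.05 mM adenosine, against 32.5, 33.1 and 37.5 FPKM with DMSO in batch 1. It had 42.4, 32.9 and 42.3 FPKM with 0.1 mM adenosine and 44.6, 35.6 and 36.4 FPKM with AMP, against 26.5, 22.3 and 25.2 FPKM with DMSO in batch 2. Purine and DMSO libraries of a batch did not overlap, though the lowest 0.1 mM adenosine library of batch 2 lay within the range of the DMSO libraries of batch 1. The log2 fold change was 0.75 (SE 0.13, adjusted p = 0.000701 by edgeR) at 0.05 mM adenosine, 0.66 (SE 0.11, adjusted p = 6.54e-05) at 0.1 mM adenosine and 0.66 (SE 0.11, adjusted p = 8.56e-05) with AMP. Neither Btg1-ps1 nor Btg1-ps2, its pseudogenes on the X chromosome, had a count in batch 1, and none of the 5 genes shared exon bases with another gene of the annotation.

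Btg3 (chromosome 16, 78359860 to 78377192, minus strand), whose human protein binds the cell cycle factor E2F1, rose at 0.05 mM adenosine in batch 1 and passed the test in neither purine group of batch 2. It had 25.8, 25.5 and 29.7 FPKM with 0.05 mM adenosine, against 16.9, 14.7 and 19.0 FPKM with DMSO, without overlap. In batch 2 it had 24.2, 14.3 and 20.7 FPKM with 0.1 mM adenosine and 27.2, 22.0 and 20.2 FPKM with AMP, against 19.8, 17.2 and 16.9 FPKM with DMSO. The 3 libraries with 0.1 mM adenosine spread from below the lowest to above the highest DMSO library, with a coefficient of variation of 25.5%, the highest of any member in any group. The AMP libraries lay above the DMSO libraries without overlap, the lowest at 20.2 FPKM beside the highest DMSO library at 19.8 FPKM. Its log2 fold change was 0.69 (SE 0.16, adjusted p = 0.00493 by edgeR) at 0.05 mM adenosine. At 0.1 mM adenosine it was 0.12 (SE 0.17, adjusted p = 0.54, 95% interval -0.24 to 0.48), and with AMP 0.36 (SE 0.17, adjusted p = 0.0682, 95% interval 0.01 to 0.72). The AMP value passed the threshold when libraries were scaled by their totals (adjusted p = 0.00175), over genes averaging 10 CPM or more (0.0374) and with only the AMP and DMSO libraries in the fit (0.0237). It also passed when 0.1 mM adenosine replicate 1 (0.0448) or 2 (0.0245) or AMP replicate 3 (0.0458) was left out. Scaling by library totals also brought the value at 0.1 mM adenosine past the threshold (log2 fold change 0.42, adjusted p = 0.0226), and leaving out single libraries gave -0.05 to 0.31 without passing (lowest adjusted p = 0.0749).

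**Figure D2:**
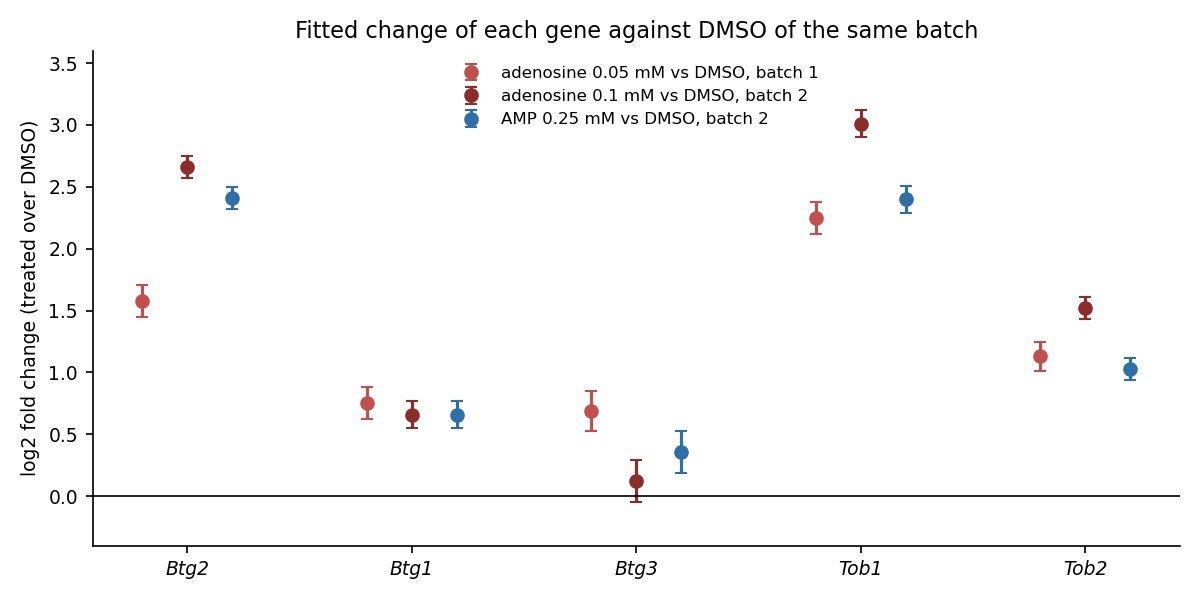
Fitted log2 fold change over DMSO of the same batch (y axis) for each gene, with bars of 1 standard error; colours mark the 3 treatments. Btg2 and Tob1 lay between 1.58 and 3.01, Tob2 between 1.03 and 1.52, Btg1 between 0.66 and 0.75, and Btg3 between 0.12 and 0.69.

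The purine libraries therefore had all 5 members above DMSO without overlap at 0.05 mM adenosine, 4 of 5 at 0.1 mM adenosine and 5 of 5 with AMP, counted on CPM. Among all genes tested, 35.7%, 50.3% and 48.4% stood higher without overlap in these comparisons, in the same order. In the fits, 39.2% of 13842 genes were called in batch 1 (adjusted p under 0.05), 69.4% of 13063 at 0.1 mM adenosine and 65.6% with AMP, and 19.6%, 34.9% and 33.7% were called higher. Since the family was chosen on these contrasts, the members' counts carry no weight of their own. The members differed in where they stood among all genes. Of the genes tested, 3.03% had a higher log2 fold change than Tob1 at 0.1 mM adenosine, 4.26% than Btg2, 11.2% than Tob2, 25.6% than Btg1 and 45.1% than Btg3. With AMP these shares were 4.70% for Tob1, 4.65% for Btg2, 16.3% for Tob2, 24.3% for Btg1 and 34.0% for Btg3. At 0.05 mM adenosine they were 3.37% for Tob1, 6.52% for Btg2, 10.5% for Tob2, 17.1% for Btg1 and 18.8% for Btg3.

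The member with the highest level per length was Tob1 in each purine group and Btg1 in both DMSO groups. With 0.05 mM adenosine the order by mean FPKM was Tob1 (81.8 ± 3.55), Btg2 (71.1 ± 6.84), Btg1 (57.4 ± 8.32), Tob2 (31.4 ± 3.18) and Btg3 (27.0 ± 2.31), where Btg2 overlapped with Btg1 and Tob2 with Btg3. In DMSO of batch 1 it was Btg1 (34.3 ± 2.73), Btg2 (23.9 ± 1.93), Tob1 (17.3 ± 1.69), Btg3 (16.9 ± 2.11) and Tob2 (14.4 ± 0.877). There Btg3 overlapped with both Tob1 and Tob2, and these TOB genes did not overlap with each other. Btg1 was thus the highest member with DMSO and the third with adenosine. In batch 2 Tob1 led with 0.1 mM adenosine (118 ± 12.9 FPKM), followed by Btg2 (78.9 ± 4.85), by Tob2 (48.3 ± 6.63) and Btg1 (39.2 ± 5.46), whose ranges overlapped, and by Btg3 (19.7 ± 5.02). With AMP, Tob1 (77.3 ± 6.81 FPKM) and Btg2 (65.8 ± 5.67) overlapped at the top, Btg1 (38.8 ± 4.97) and Tob2 (34.1 ± 1.65) overlapped below them, and Btg3 (23.2 ± 3.65) was lowest. In DMSO of batch 2, Btg1 (24.7 ± 2.17 FPKM) again led, and Btg3 (18.0 ± 1.57), Tob2 (16.7 ± 0.847), Tob1 (14.6 ± 2.21) and Btg2 (12.4 ± 0.481) followed, each overlapping with the next.

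The summed FPKM of the family was 269 ± 15.8 with 0.05 mM adenosine, against 107 ± 5.70 with DMSO in batch 1. It was 304 ± 29.3 with 0.1 mM adenosine and 239 ± 16.3 with AMP, against 86.3 ± 5.94 with DMSO in batch 2 (SD, n = 3 each). The Tob1 share of that sum was 30.5% with 0.05 mM adenosine against 16.3% with DMSO, and in batch 2 it was 38.9% with adenosine and 32.3% with AMP, against 16.9% with DMSO. The Btg1 share moved the other way, at 21.3% with 0.05 mM adenosine against 32.1% with DMSO, and at 12.8% with 0.1 mM adenosine and 16.2% with AMP, against 28.5% with DMSO. FPKM of the batches came in separate tables, both built on the same gene lengths, and were not tested against each other.

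**Figure D3:**
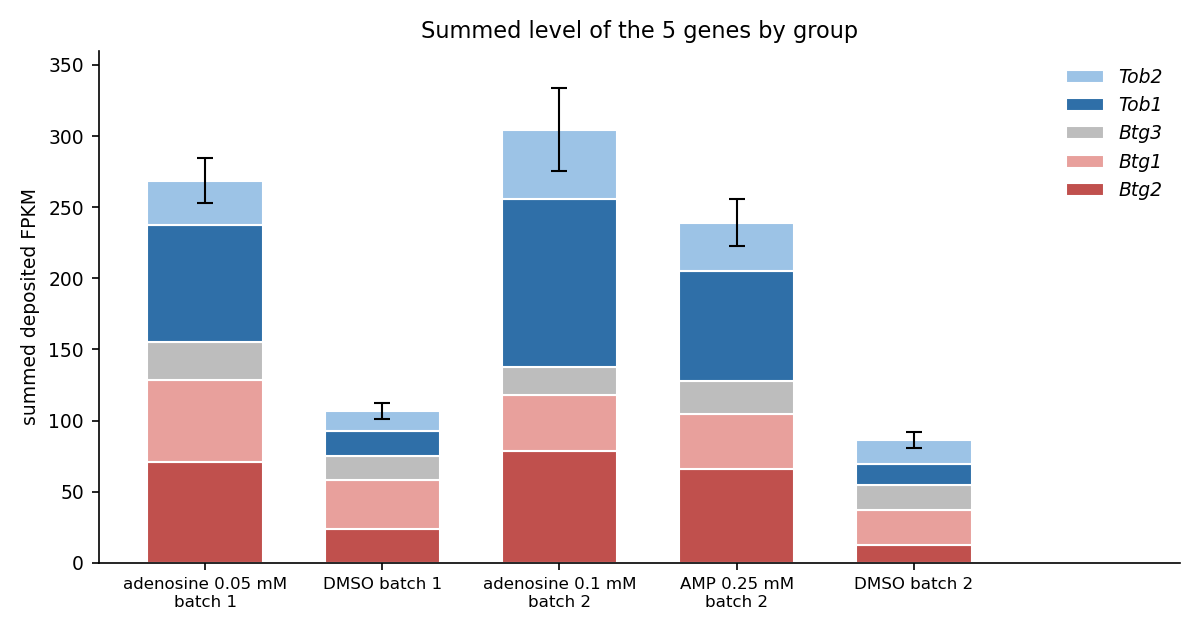
Summed deposited FPKM of the 5 genes (y axis, from 0) by group, with bars stacked by gene at the group mean and an error bar of ± SD of the sum over 3 libraries. The sums were 269, 304 and 239 FPKM in the purine groups and 107 and 86.3 FPKM in the DMSO groups, and the Tob1 segment is the largest in each purine group.

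AMP and adenosine were then set against each other within batch 2, a contrast that was not itself used to choose the genes. It does use the treated libraries whose rises over DMSO picked Btg2 and Tob1. For these genes the test is therefore not independent of the choice, whereas Btg1, Btg3 and Tob2 came in by name. AMP was given at 0.25 mM and adenosine at 0.1 mM, so compound and dose cannot be told apart. Tob1 was lower with AMP (77.3 ± 6.81 FPKM) than with adenosine (118 ± 12.9 FPKM), a log2 difference of -0.60 (SE 0.10, adjusted p = 0.00183 by edgeR, 95% interval -0.82 to -0.39). Tob2 was lower with AMP as well (34.1 ± 1.65 against 48.3 ± 6.63 FPKM with adenosine), by a log2 difference of -0.49 (SE 0.09, adjusted p = 0.00361, 95% interval -0.69 to -0.30). Both TOB genes fell in this contrast in which 2.00% of 13063 genes were called lower and 6.51% were called in either direction. Btg2 differed by -0.25 (SE 0.08, adjusted p = 0.0668, 95% interval -0.42 to -0.09). Its AMP libraries lay below its adenosine libraries without overlap, as for 11.8% of all genes, and the value passed the threshold with DESeq2 (adjusted p = 0.0388) and without AMP replicate 3 (0.0271). Btg1 differed by less than 0.01 on the log2 scale (SE 0.11, adjusted p = 0.993), with a 95% interval from -0.23 to 0.23. Btg3 differed by 0.24 (SE 0.17, adjusted p = 0.453, 95% interval -0.11 to 0.60), and both it and Btg1 overlapped between the compounds. Leaving out single libraries moved the number of genes called over the whole table between 408 (without 0.1 mM adenosine replicate 3) and 991, against 851 with all libraries. It was 555 without AMP replicate 1 and 519 without AMP replicate 2. Tob1 and Tob2 passed under every alternative and with every library left out, with adjusted p up to 0.0166 and 0.0231 in the runs without 1 library.

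The adenosine response of batch 2 (0.1 mM) was compared with that of batch 1 (0.05 mM) as an interaction over all 15 libraries. It is built from the rises over DMSO on which Btg2 and Tob1 were picked, so their differences are given with no test, as 1.08 on the log2 scale for Btg2 (SE 0.14) and 0.76 for Tob1 (SE 0.16). Leaving out single libraries gave 1.01 to 1.17 for Btg2 and 0.66 to 0.87 for Tob1. In this comparison 12% of the 13042 genes tested were called in either direction. Of the same 13042 genes, 6.30% were called with a higher effect in batch 2. Tob2 had a difference of 0.40 (SE 0.15, adjusted p = 0.0862 by edgeR, 95% interval 0.09 to 0.71). It passed with library totals (adjusted p = 0.0262), with a filter at a mean of 10 CPM (0.0487), without 0.05 mM adenosine replicate 1 (0.0329) and without 0.1 mM adenosine replicate 2 (0.0361). Btg1 differed by -0.08 (SE 0.17, adjusted p = 0.786, 95% interval -0.45 to 0.28). Btg3 had the opposite sign, -0.56 (SE 0.24, adjusted p = 0.132, 95% interval -1.06 to -0.06), and did not pass. Set side by side across the separate tables and with no test, Btg2 had adenosine levels of 78.9 ± 4.85 FPKM in batch 2 and 71.1 ± 6.84 FPKM in batch 1, with DMSO levels of 12.4 ± 0.481 and 23.9 ± 1.93 FPKM. Tob1 had adenosine levels of 118 ± 12.9 FPKM in batch 2 and 81.8 ± 3.55 FPKM in batch 1, with DMSO levels of 14.6 ± 2.21 and 17.3 ± 1.69 FPKM. The number of genes called fell to 896 without DMSO replicate 2 of batch 2 and to 1038 without its replicate 3, against 1563 with all libraries.

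**Figure D4:**
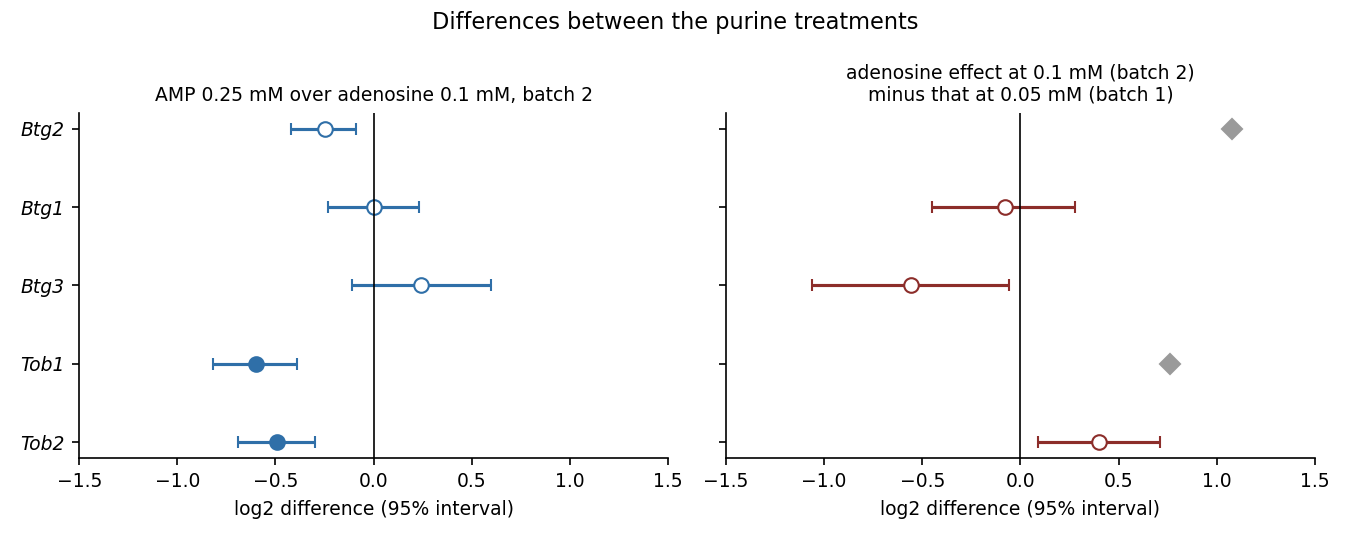
Left, log2 difference of AMP over adenosine in batch 2, and right, log2 adenosine effect of batch 2 minus that of batch 1 (x axes), for each gene; bars are 95% intervals filled circles passed an adjusted p of 0.05 in edgeR, open circles did not, and grey diamonds are values with no test and no interval. Tob1 (-0.60) and Tob2 (-0.49) are filled on the left, and Btg2 (1.08) and Tob1 (0.76) are the diamonds on the right.

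By sequence the genes fall into 2 close pairs and Btg3. By translation of GENCODE M21 coding sequences, Btg2 has 158 residues and Btg1 171, against 252 in Btg3, 362 in Tob1 and 345 in Tob2. Btg1 and Btg2 were identical at 63.8% of 160 aligned columns and Tob1 and Tob2 at 51.9% of 393 columns, while all other pairs lay between 29.3% and 45.5%. Btg2 had higher log2 fold changes than Btg1 in each purine comparison (2.66 against 0.66 at 0.1 mM adenosine), and so had Tob1 than Tob2 (3.01 against 1.52). These differences between genes were not tested. Btg2 and Tob1 were the members picked for their rises, so their lead within each pair carries no weight of its own. In the transcripts used, Btg3 has 5 exons and each of the others has 2. The 3' untranslated regions held 5 copies of ATTTA (the core of AU-rich decay elements) in Btg2, 11 in Btg1, 4 in Btg3, 3 in Tob1 and 4 in Tob2. Per kilobase this was 2.27, 2.64, 9.11, 3.91 and 1.63 in the same order, against a median of 1.31 over 19072 protein-coding genes. Btg3 had the densest copies, in a region of 439 bases, and 1.26% of genes had at least that density.

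Over the 15 libraries, after each batch was centred on its own DMSO mean, log2 CPM of Btg2, Tob1 and Tob2 ran close together (Pearson r 0.98 for Btg2 with Tob1, 0.98 for Tob1 with Tob2 and 0.95 for Btg2 with Tob2). Btg3 was least like the others, with r 0.39 to Btg2, 0.45 to Tob1, 0.50 to Tob2 and 0.76 to Btg1. These values are descriptions over libraries that share the split into purine and DMSO, and they carry no test. Among the 9983 genes averaging 5 CPM or more, the 3 most like Btg2 were Txnip, the thioredoxin-interacting protein (r 0.994), Cyb561, a transmembrane cytochrome (0.994), and Cpt1c, a carnitine palmitoyltransferase (0.993). Txnip had log2 fold changes of 2.49 at 0.05 mM adenosine, 3.93 at 0.1 mM adenosine and 3.53 with AMP. Among the nearest to Tob1 were Gstm1, a glutathione S-transferase (r 0.993), and Map1lc3b, the autophagosome protein LC3B (0.993; log2 fold changes 1.43, 2.01 and 1.73 in the same order). For Tob2 they were H2-K1, a class I MHC heavy chain whose reads can be shared with its paralogs (0.992), Mknk2, a kinase that phosphorylates eIF4E (0.989; 1.09, 1.44 and 0.98), and Brd2, a BET bromodomain protein (0.984). Btg1 was nearest to Vmp1, an autophagy protein of the endoplasmic reticulum (0.968), Eda2r, a TNF receptor family member (0.963), and Dpf2, a BAF complex subunit (0.958). For Btg3 the likeness was lower, with Tango6 (0.906), Zc3h12c (0.903) and the spliceosomal Snrpd3 (0.895). Of these near genes, Txnip, Cyb561, Map1lc3b, Vmp1, Zc3h12c and Snrpd3 share exon bases with another annotated gene. In batch 1 the overlapping gene had 3983 counts beside 30044 for Map1lc3b and 2559 beside 11453 for Snrpd3. For the rest it had 85 or fewer.

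The partners through which BTG and TOB proteins act on mRNA moved in both directions. Of 11 CCR4-NOT genes, 3 rose, 3 fell and 5 did not pass at 0.05 mM adenosine (median log2 fold change -0.19, against 0.03 over all genes tested). At 0.1 mM adenosine 3 rose, 5 fell and 3 did not pass (median -0.13, against 0.01), and with AMP 3 rose, 6 fell and 2 did not pass (median -0.22, against 0.01). Of all genes tested, 19.6% were called higher and 19.5% lower at 0.05 mM adenosine, 34.9% and 34.5% at 0.1 mM adenosine, and 33.7% and 31.8% with AMP. The 6, 8 and 9 of 11 CCR4-NOT genes called in either direction stand beside 39.2%, 69.4% and 65.6% of all genes. Cnot9, a subunit that binds adaptor proteins, fell by 0.94 on the log2 scale at 0.1 mM adenosine (SE 0.07, adjusted p = 7.99e-09 by edgeR) and by 0.99 with AMP (SE 0.07, adjusted p = 7.47e-09). Cnot6l, a CCR4-type deadenylase, fell by 0.86 at 0.05 mM adenosine (SE 0.17) and by 0.62 at 0.1 mM (SE 0.13). Cnot7, the deadenylase bound by the BTG/TOB domain, fell by 0.60 with AMP (SE 0.07, adjusted p = 2.83e-06). Cnot4, a ubiquitin ligase of the complex, rose by 0.68 at 0.05 mM adenosine (SE 0.13, adjusted p = 0.00122). Between AMP and adenosine edgeR called 0 of the 11, with 2 at an unadjusted p under 0.05, and DESeq2 called 0, beside 6.51% of all genes called by edgeR.

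Among 9 poly(A)-binding proteins and other deadenylases, 0 rose and 2 fell at 0.05 mM adenosine (median -0.12), where no rise had an unadjusted p under 0.05 in edgeR and DESeq2 called 0 as higher. At 0.1 mM adenosine 4 rose and 3 fell (median 0.24), and with AMP 3 rose and 3 fell (median 0.07). The 2, 7 and 6 of 9 called are to be read against 39.2%, 69.4% and 65.6% of all genes, and the batch 2 counts lie near those shares. Pabpc1, the cytoplasmic poly(A)-binding protein that TOB proteins bind, fell in all 3 comparisons. It averaged 439 ± 40.4 CPM with 0.05 mM adenosine against 949 ± 24.8 CPM with DMSO (SD, n = 3 each), which is -1.31 on the log2 scale (SE 0.11, adjusted p = 4.05e-06). In batch 2 it averaged 343 ± 39.4 CPM with adenosine (log2 fold change -1.20, SE 0.08) and 379 ± 4.62 CPM with AMP (-1.01, SE 0.08), against 635 ± 48.9 CPM with DMSO. Pabpc4 fell by 1.06 at 0.05 mM adenosine (SE 0.13, adjusted p = 6.22e-05). The nuclear Pabpn1 rose by 1.22 at 0.1 mM adenosine (SE 0.22) and by 1.04 with AMP (SE 0.22), from a low level, with 10.7 ± 0.497 CPM in adenosine and 9.24 ± 2.29 CPM in AMP against 3.73 ± 0.719 CPM in DMSO.

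In the decapping and 5' decay list of 10 genes, 1 rose and 1 fell at 0.05 mM adenosine, 3 rose and 3 fell at 0.1 mM, and 4 rose and 1 fell with AMP. These 2, 6 and 5 of 10 genes called stand beside the 39.2%, 69.4% and 65.6% called among all genes. With 10 genes, no difference from those shares is read here. Xrn1, the 5' exonuclease, had log2 fold changes of 1.11 (SE 0.16) at 0.1 mM adenosine and 0.93 (SE 0.17) with AMP, and the helicase Ddx6 had 0.66 (SE 0.15) and 0.73 (SE 0.15). In batch 1 Edc4, a decapping scaffold, rose by 0.34 (SE 0.12, adjusted p = 0.0423) and Eif4enif1, an eIF4E-binding transport protein, fell by 0.53 (SE 0.14, adjusted p = 0.0112). Edc4 lost its call in 5 of 6 runs that left out 1 library, with adjusted p up to 0.202, and Eif4enif1 lost it with library totals (0.0829).

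RNA-binding adaptors that bring CCR4-NOT to particular mRNAs had 13 of 14 genes tested. At 0.05 mM adenosine 3 rose and 3 fell (median -0.03), at 0.1 mM adenosine 7 rose and 2 fell (median 0.39), and with AMP 8 rose and 2 fell (median 0.38). Among all genes 19.6%, 34.9% and 33.7% were called higher in these comparisons and 19.5%, 34.5% and 31.8% lower, in the same order, and 39.2%, 69.4% and 65.6% in either direction. Cpeb4, a cytoplasmic polyadenylation element-binding protein, had 32.9 ± 6.07 CPM with 0.1 mM adenosine and 26.0 ± 3.21 CPM with AMP, against 6.78 ± 1.08 CPM with DMSO, log2 fold changes of 1.97 (SE 0.18) and 1.67 (SE 0.18). Zfp36 (tristetraprolin), which binds AU-rich elements, rose by 1.68 at 0.1 mM adenosine (SE 0.11, adjusted p = 4.9e-09). Cpeb2 rose by 1.47 at 0.05 mM adenosine (SE 0.30), and Nanos1 fell by 2.01 there (SE 0.34) and by 1.81 with AMP (SE 0.32). Both were at low levels. In batch 1 Cpeb2 had 9.27 ± 1.47 CPM with adenosine against 2.91 ± 0.273 CPM with DMSO, and Nanos1 had 1.81 ± 0.203 against 6.38 ± 0.474 CPM. With AMP, Nanos1 had 2.94 ± 1.75 CPM against 8.59 ± 1.35 CPM with DMSO. The Cpeb2 call was lost with limma on unfiltered log2(FPKM + 1) (log2 fold change 0.58, adjusted p = 0.0564). Between AMP and adenosine, Zfp36l2 of the same list differed by 0.28 (SE 0.08, adjusted p = 0.0398), a call lost with library totals (0.136) and in 7 of 9 runs without 1 library.

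The list of other binding partners also counted Ccnd1, taken here as a gene whose transcription Btg2 lowers. Of its 8 genes, 6 were tested in batch 1, where 1 rose and 2 fell. In batch 2, 5 were tested, of which 2 rose and 2 fell with adenosine and 3 rose and 1 fell with AMP. These were 3 of 6, 4 of 5 and 4 of 5, beside 39.2%, 69.4% and 65.6% of all genes called. Prmt1 could not be matched by name in the tables and is not analysed here. E2f1, the S-phase transcription factor, fell by 3.03 at 0.05 mM adenosine (SE 0.28, adjusted p = 5.89e-06), by 1.61 at 0.1 mM adenosine (SE 0.19) and by 1.63 with AMP (SE 0.20). Its level was 2.87 ± 0.292 CPM with 0.05 mM adenosine against 20.4 ± 6.12 CPM with DMSO in batch 1. Ccnd1 (cyclin D1), whose transcription Btg2 lowers in cultured cells, fell by 1.01 at 0.05 mM adenosine (SE 0.15, adjusted p = 0.00021) and by 0.46 at 0.1 mM adenosine (SE 0.11, adjusted p = 0.0018), and the second of these calls was lost with library totals (log2 fold change -0.15, adjusted p = 0.273). With AMP it rose by 0.52 over DMSO (SE 0.11, adjusted p = 0.00075), where Btg2 and Tob1 also stood above DMSO. In batch 2 Ccnd1 was higher with AMP (415 ± 44.4 CPM) than with adenosine (218 ± 45.9 CPM), a log2 difference of 0.98 (SE 0.11, adjusted p = 0.000112), the opposite direction to Tob1 and Tob2. A link between Ccnd1 and the levels of Btg2, Tob1 or Tob2 was not tested. Smad4, the common mediator of BMP and TGF-beta signals, had log2 fold changes of 0.61 (SE 0.14) at 0.1 mM adenosine and 0.72 (SE 0.14) with AMP. Of the genes named in these lists, Ccnd1, Cnot7, Cnot9, Cpeb2, Edc4, Pabpn1, Tnrc6b and Xrn1 share exon bases with another annotated gene. Cnot8 was not checked for this. The libraries carry no strand, so reads from such overlaps cannot be assigned. For Cnot9 the overlapping gene had 6051 counts in batch 1, beside 11014 for Cnot9.

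**Figure D5:**
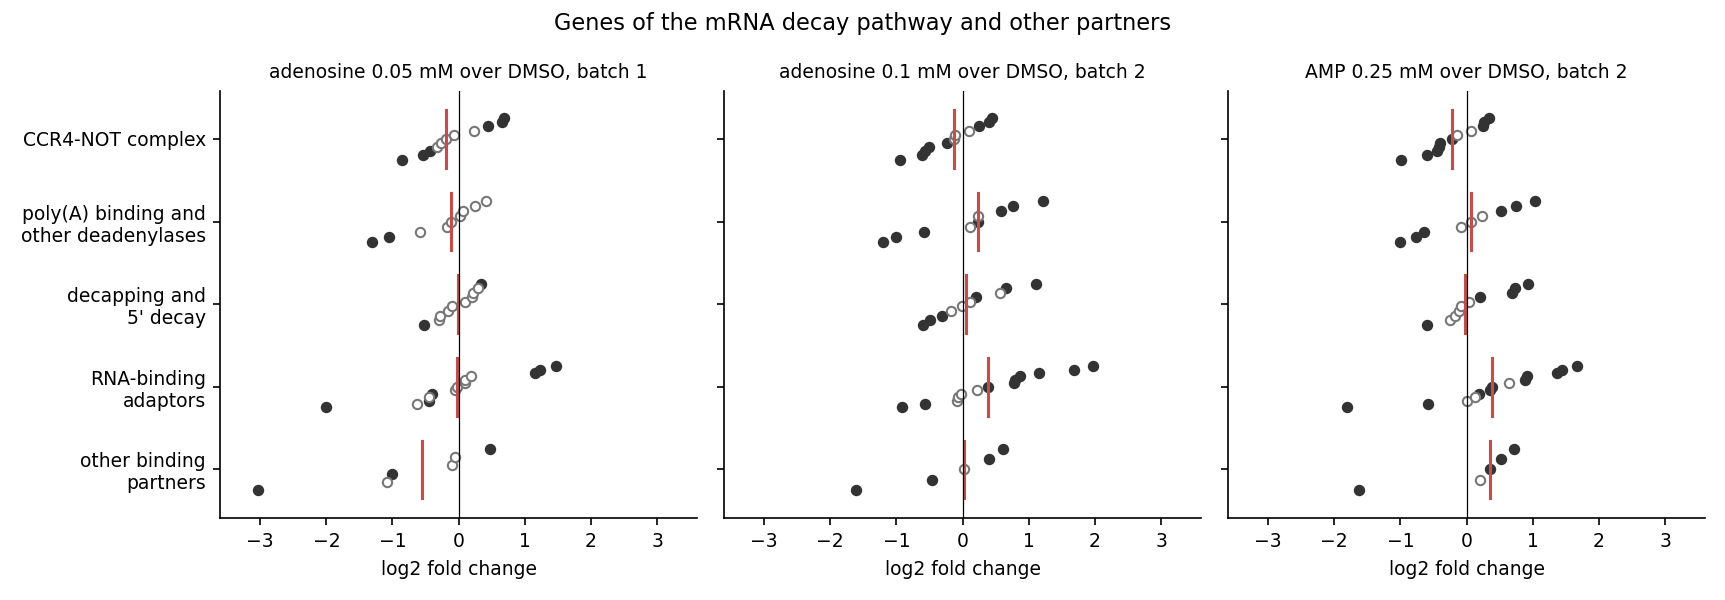
Log2 fold change over DMSO (x axes) of each tested gene in 5 lists (rows), with 1 panel per comparison; filled points passed an adjusted p of 0.05 in edgeR and red bars mark list medians. List medians lay between -0.55 and 0.39, and the lowest point is E2f1 in batch 1 at -3.03.

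The treated libraries had higher TMM factors than the DMSO libraries, and scaling by library totals put the median change over all genes at 0.225 (log2) at 0.05 mM adenosine, 0.323 at 0.1 mM adenosine and 0.279 with AMP. All 5 BTG and TOB genes kept a positive sign over DMSO under both scalings. With library totals the share of called genes that were higher became 67.4%, 68.7% and 69.9% in the same order, against 50.1%, 50.3% and 51.4% with TMM. CCR4-NOT genes then split 4 higher and 2 lower at 0.05 mM adenosine, 4 and 4 at 0.1 mM adenosine, and 4 and 2 with AMP, and their median turned positive in batch 2 (0.17 with adenosine and 0.05 with AMP). Of the 13 adaptors, 11 were then called higher in each purine group of batch 2. With that scaling 29.1% of all genes were called higher at 0.05 mM adenosine, 48.6% at 0.1 mM adenosine and 46.2% with AMP.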

How the data were processed

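Mouse satellite cell RNA was sequenced in 15 libraries, 3 per group. Per the labels' protocols, cDNA was made with Smart-Seq2 and fragmented with Tn5, which keeps no strand. The submitters' processing notes name DESeq2, featureCounts, STAR, Subread and Trim Galore, and the build mm10. The authors deposited raw counts per gene. Per the file headers, batch 1 came from featureCounts 1.6.4 in paired-end mode; for batch 2 the counter's settings are not stated. The batch 2 table had been filtered before deposit (smallest total 101 counts), and 43 lines without a gene name (0.0589% of counts) were left out. FPKM was deposited for both batches and, by comparison with the counts, used the gene length (summed exon bases) given per the file headers. Its scaling between libraries was not that of the library totals. For Btg2, 0.05 mM adenosine replicate 1 had 214 CPM and 73.1 FPKM, and DMSO replicate 2 of batch 2 had 28.2 CPM and 11.8 FPKM. The authors also deposited log2 fold changes and adjusted p-values for batch 1.

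Counts were tested with edgeR 4.0.16 in R 4.3.3 (two-sided quasi-likelihood F test with TMM scaling and filterByExpr), with p-values adjusted by Benjamini-Hochberg over all genes tested and a threshold of 0.05. The fit of batch 1 held 6 libraries and that of batch 2 held 9. The interaction used all 15 libraries, with 13042 genes matched by symbol. A standard error is the log2 fold change divided by the root of F. CPM was taken from the library total, without TMM factors. Alternatives were DESeq2 1.42.0, limma 3.58.1 on log2(FPKM + 1) and log2(FPKM + 0.1), other scalings and filters, a replicate block and leaving out each library. Code was tested on simulated data. None of the 15 replicate pairs agreed within counting noise (chi-square per degree of freedom 3.54 to 34.4).

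The members, gene lists and tests were chosen with earlier results of these data known. Named were the 5 members, for each partner list the 2 called genes with the largest absolute log2 fold change per comparison, and for each member the 3 genes with the highest Pearson r of log2 CPM. A gene that this rule names is not reported here.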

Additional observations from a re-analysis of the deposited data

Results flagged for a closer look

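The adenosine effect differed between batch 2 (0.1 mM) and batch 1 (0.05 mM), by the interaction test in edgeR, for 8 of the 48 genes tested in the partner lists, beside 12% of all genes tested. Dose and batch changed together, so they cannot be told apart. No member is counted here, since the rises of Btg2 and Tob1 over DMSO chose the family and the other 3 members did not pass in edgeR, with adjusted p of 0.0862 for Tob2, 0.132 for Btg3 and 0.786 for Btg1. E2f1 differed by 1.42 on the log2 scale (adjusted p = 0.0105) and fell in both batches, by 1.61 in batch 2 and by 3.03 in batch 1. Pabpn1 differed by 1.39 (adjusted p = 0.00983), Ddx6 by 0.94 (adjusted p = 0.0121) and Xrn1 by 0.89 (adjusted p = 0.0324). Tnrc6b differed by 0.84 (adjusted p = 0.032), Cnot6 by 0.82 (adjusted p = 0.00535) and Smad4 by 0.67 (adjusted p = 0.0298). For each of these genes the signed log2 fold change over DMSO was higher in batch 2. Cnot6 fell by 0.43 in batch 1 (adjusted p = 0.0314 by edgeR) and rose by 0.40 in batch 2 (adjusted p = 0.00273). Pabpn1 (-0.17), Ddx6 (-0.28), Xrn1 (0.22), Tnrc6b (-0.45) and Smad4 (-0.05) did not pass over DMSO in batch 1. Cnot9 differed by -0.39 (adjusted p = 0.0497), and this call was lost in 12 of the 15 runs that left out 1 library. Calls of Smad4, Tnrc6b and Xrn1 were lost in 4, 6 and 6 such runs. Set side by side with no test, mean DMSO levels of Pabpn1 were 9.64 CPM in batch 1 and 3.73 CPM in batch 2. In the same order they were 47.2 and 16.9 CPM for Ddx6, 29.4 and 14.6 for Xrn1, and 36.5 and 16.5 for Tnrc6b. They were 89.5 and 36.9 CPM for Cnot6 and 46.9 and 17.7 CPM for Smad4. E2f1 (20.4 and 26.8 CPM) and Cnot9 (122 and 143 CPM) had the higher DMSO level in batch 2.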

How the results depend on the processing

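No member changed sign over DMSO under another scaling, filter or tool, with the replicate block or with FPKM. With library totals the log2 fold changes of Btg2 and Tob1 moved by more than the spread between replicates, to 1.78 and 2.45 at 0.05 mM adenosine, 2.97 and 3.31 at 0.1 mM adenosine, and 2.68 and 2.67 with AMP. Btg3 passed the threshold with library totals at 0.1 mM adenosine (0.42) and with AMP (0.63), and with AMP also at a mean of 10 CPM (0.44), with the replicate block (0.36, adjusted p = 0.0187) and with only the 2 groups compared (0.37). Btg2 passed between AMP and adenosine with DESeq2 (-0.26) and the replicate block (-0.25, adjusted p = 0.0217). Tob2 passed in the batch comparison with library totals (0.50) and at a mean of 10 CPM (0.46).

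Leaving out 1 library gave 408 to 991 genes called between AMP and adenosine and 896 to 2063 in the batch comparison. Over such runs Btg3 with AMP ranged from 0.24 to 0.45, Btg3 at 0.1 mM adenosine from -0.05 to 0.31, Btg2 between AMP and adenosine from -0.31 to -0.19, and Tob2 between batches from 0.30 to 0.50. Same-numbered replicates correlated by -0.03 to 0.09 in batch 1 (median 0.05) and -0.07 to 0.30 in batch 2 (median 0.11). Differently numbered replicates correlated by -0.17 to 0.10 (median -0.025) and -0.25 to 0.14 (median -0.07) in the same order. The ranges overlapped and numbers were not taken to pair samples, though some pairing in batch 2 remains possible. The replicate block gave 5004, 9239, 8742, 1159 and 1727 called genes in the 5 comparisons, against 5420, 9067, 8564, 851 and 1563.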
